A study of Homo sapiens with 12 samples.

Results

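The genes described here carry the erythropoietin and KIT signals that keep erythroid progenitors alive: EPOR, JAK2, STAT5A, STAT5B, BCL2L1, PIM1, CISH and KIT. Their members in the data are 40 intervals of the deposited GATA1 and TAL1 lists that overlapped 1 of 7 windows around the 8 genes by at least 1 bp, out of 24658 distinct intervals in all. STAT5A and STAT5B lie side by side and shared a window. Of the 40 intervals, 37 came from the GATA1 list (22769 intervals) and 21 from the TAL1 list (8918 intervals). An interval present in both lists with the same start and end is called shared, and the others GATA1-only or TAL1-only. There were 18 shared (45%), 19 GATA1-only (47.5%) and 3 TAL1-only intervals (7.5%). Over all intervals on chromosomes 1 to 22 and X these shares were 28.5%, 63.8% and 7.65%.

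The lists come from ChIP-seq in K562, a human erythroleukemia cell line, labelled as control cells, with 1 library for GATA1 and 1 for TAL1. The title of the TAL1 library holds the letters Sp, and that of the GATA1 library does not. Whether this labelled difference bears on the classes was not tested. The labels do not say whether the control cells received a vector. Knockdown cells of the same series had either GATA1 or TAL1 reduced by short hairpin RNA from a lentiviral vector, and their libraries were not analysed here. Chromatin had been cut with micrococcal nuclease to the size of mono- or dinucleosomes before precipitation. The study's title concerns how enhancers act on erythroid genes near them and whether TAL1 is needed, and the control lists show where each factor was listed before any knockdown. Each list gives positions only, so a value below is a count, a width or a distance, never a binding strength, and none has a replicate error. The depth of the libraries is unknown, so an absent interval means only that none was listed.

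Erythropoietin binds its receptor EPOR, which activates the tyrosine kinase JAK2 bound to it. JAK2 phosphorylates STAT5A and STAT5B, which enter the nucleus and switch on target genes. Among these are BCL2L1, which encodes the survival protein BCL-XL, PIM1, a serine/threonine kinase that favours survival, and CISH, a member of the SOCS family that damps signalling by cytokine receptors. KIT is the receptor tyrosine kinase for stem cell factor, acts in earlier progenitors and is switched off as red cells mature. K562 cells carry the BCR-ABL1 fusion kinase, which activates STAT5 without erythropoietin. GATA1 binds GATA motifs, and TAL1 binds E-boxes with a partner protein, often in a complex that also holds GATA1, LMO2 and LDB1.

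Promoter sequences from RefSeq (GRCh38.p14) are shown first, for the letters that both factors are known to read. All 8 genes matched, with 14 listed starts. The GATA motif was searched as AGATAA or TGATAA or AGATAG or TGATAG and the E-box as CANNTG, on both strands, in the 250 bases before each start. A GATA motif was found at the EPOR start alone, 1 of the 14, against 22.3% of 35116 promoters in the table. E-boxes were found at 8 of the 14 starts, belonging to EPOR, JAK2 and STAT5A, against 61.8% of all promoters. By gene, 3 of 8 had an E-box. Some of the stretches searched overlap at JAK2 and at STAT5A, so the starts are not independent counts. The paired motif, CTG followed after 8 or 9 bases by GATA, was at none of the 14 starts and at 3.22% of all promoters. The E-box is so common that its presence says little. The sequences of 3 genes follow, in lower case with GATA motifs and E-boxes in capitals, EPOR for its GATA motif, STAT5A for its 4 E-boxes, and BCL2L1 because its window held the most intervals while neither motif was found at this start or at its second one.

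EPOR (chr19:11384315-11384564, minus strand): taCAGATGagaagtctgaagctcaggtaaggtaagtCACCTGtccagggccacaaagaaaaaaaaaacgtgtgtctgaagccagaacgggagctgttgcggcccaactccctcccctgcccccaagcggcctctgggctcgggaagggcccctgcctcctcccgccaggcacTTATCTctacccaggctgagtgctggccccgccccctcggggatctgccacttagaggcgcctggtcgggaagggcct

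STAT5A (chr17:42287189-42287438, plus strand, the first of its 3 listed starts): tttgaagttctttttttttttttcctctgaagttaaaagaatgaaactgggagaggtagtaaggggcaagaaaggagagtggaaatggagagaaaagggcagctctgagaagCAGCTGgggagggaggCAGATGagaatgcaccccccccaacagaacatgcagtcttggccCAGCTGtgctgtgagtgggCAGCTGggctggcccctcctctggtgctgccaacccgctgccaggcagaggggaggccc

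BCL2L1 (chr20:31723964-31724213, minus strand, the farther upstream of its 2 listed starts): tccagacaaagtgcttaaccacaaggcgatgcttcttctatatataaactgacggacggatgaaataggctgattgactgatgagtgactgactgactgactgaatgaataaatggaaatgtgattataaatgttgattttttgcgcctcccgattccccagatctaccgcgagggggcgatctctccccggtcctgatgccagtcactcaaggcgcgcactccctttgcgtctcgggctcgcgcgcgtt

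In the EPOR sequence the GATA motif reads TTATCT, that is AGATAA on the other strand, and lies 78 to 73 bases before the start. The E-boxes CAGATG and CACCTG lie farther out, 248 to 243 and 214 to 209 bases before it, and overlap no GATA motif. The lists use hg19 and the promoter table GRCh38, so intervals were not placed on these promoters. For the same reason exons, introns and starts were not assigned to intervals, and the other genes of the pathway were not counted. A match is a stretch of letters and not a measured site, and no match says only that these letters are not in this window.

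Positions of intervals are those of hg19, counted from 1. To read a window's count, chromosomes 1 to 22 and X were cut into neighbouring tiles as long as that window, and the share of tiles with at least as many intervals of either list is given as a background. Tiles were not matched on gene content and assembly gaps were not masked, so this share is not a test.

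**Figure D1:**
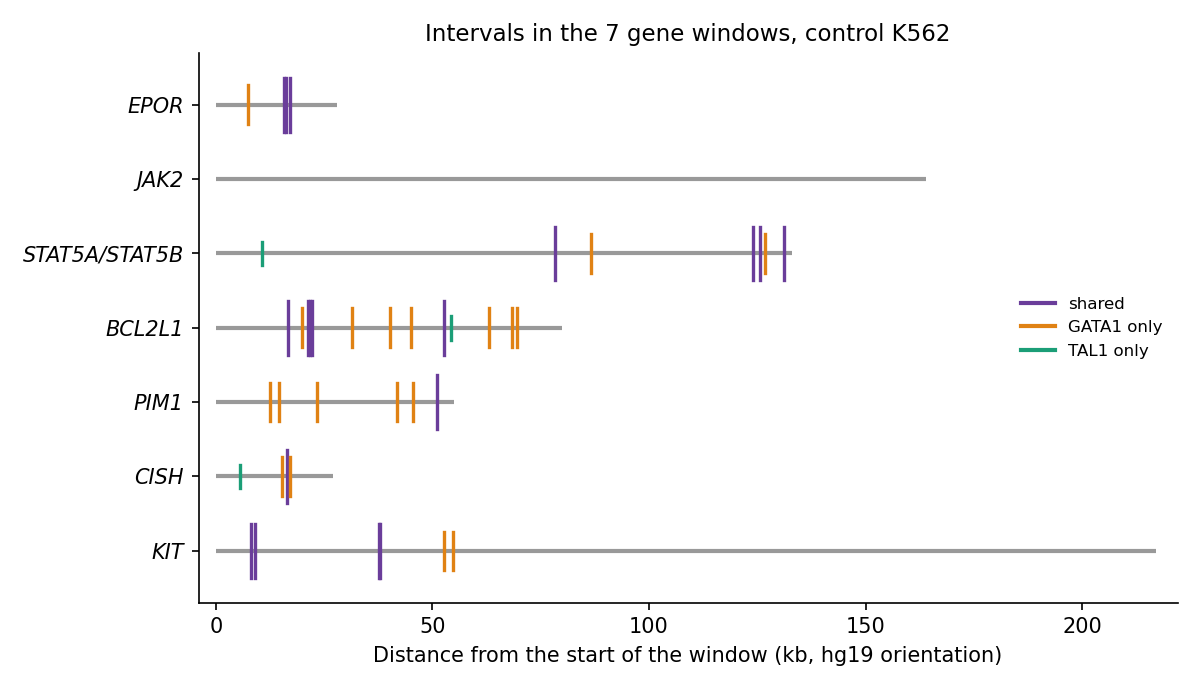
Position of each interval in the 7 windows, as distance in kb from the start of the window along the chromosome. Each coloured mark is the middle of 1 interval, tall for shared, middle for GATA1-only and short for TAL1-only, and each grey line is a window drawn to length. JAK2 has no mark, and all 6 marks of KIT lie in the first 54.8 kb of 217 kb.

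Shared intervals were found in 6 of the 7 windows, those of both receptor genes among them. Outside the windows, 30.8% of the GATA1 intervals were shared, and the counts at single genes are small. The EPOR window (chromosome 19, 11478001 to 11506000, band 19p13.2, 28 kb) held 4 intervals, of which 3 were shared. Those 3 lay together from 11493568 to 11495169, a span of 1602 bp. They measured 439 bp (11493568 to 11494006), 202 bp (11494166 to 11494367) and 238 bp (11494932 to 11495169), with gaps of 159 and 564 bp between them. The remaining interval was GATA1-only and the widest of the window, at 792 bp (11485134 to 11485925), 7642 bp before the group. Of all 28 kb tiles, 0.92% held 4 or more intervals. On GRCh38 the neighbouring protein-coding genes of EPOR are SWSAP1 and RGL3, so an interval in the window need not belong to EPOR. The nearest interval before the window was TAL1-only, at 13.7 kb, and the nearest after it GATA1-only, at 84.3 kb. Within 50 kb on either side stood 2 further intervals, both TAL1-only.

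KIT had the longest window (chromosome 4, 55400001 to 55617000, band 4q12, 217 kb) and 6 intervals, 4 of them shared. They formed 3 pairs, each of a single class. The first pair was shared, 133 bp (55407984 to 55408116) and 426 bp (55408721 to 55409146) wide, with 604 bp between. The second was shared too, 443 bp (55437389 to 55437831) and 108 bp (55437878 to 55437985), with 46 bp between. The third was GATA1-only, 133 bp (55452538 to 55452670) and 297 bp (55454541 to 55454837), with 1870 bp between. Shared intervals thus stood on the side of the window with lower coordinates, farther from its end than the GATA1-only pair. Narrowing the window by 10 kb on both sides left 4 intervals, 2 of them shared.

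No interval was listed in the last 162 kb of the KIT window (55454838 to 55617000), which is longer than the 82.8 kb that RefSeq gives for KIT on GRCh38. Which part of the window KIT fills was not read from an annotation of hg19. The protein-coding gene before KIT on GRCh38 is PDGFRA and the next after it is KDR. Of all 217 kb tiles, 11.2% held 6 or more intervals, the largest such share among the 6 windows that held any. Beyond the window, the nearest intervals were 60.3 kb before it (shared) and 577 kb after it (GATA1-only).

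JAK2, the kinase between the erythropoietin receptor and STAT5, had no interval of either factor in its window (chromosome 9, 4975001 to 5139000, band 9p24.1, 164 kb). The nearest were GATA1-only intervals 35.4 kb before the window and 53.0 kb after it. An empty window of this length is common: 37.8% of all 164 kb tiles held at least 1 interval, and 62.2% held none. The surroundings of JAK2 were not empty, since 19 intervals lay within 1 Mb on either side, or 0.95 per 100 kb, against 0.812 per 100 kb over chromosomes 1 to 22 and X.

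The window of STAT5A and STAT5B (chromosome 17, 40341001 to 40474000, band 17q21.2, 133 kb) held 7 intervals, 4 shared, 2 GATA1-only and 1 TAL1-only. Of all 133 kb tiles, 3.6% held 7 or more. A group of 4 stood near the end with higher coordinates, within 7.86 kb (40464532 to 40472392). It began with the widest shared interval of all windows, 783 bp (40464532 to 40465314). A shared interval of 161 bp (40466447 to 40466607), a GATA1-only interval of 328 bp (40467696 to 40468023) and a shared interval of 460 bp (40471933 to 40472392) followed.

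The group of 4 was close to the edge of the window. STAT3, a related transcription factor gene, is the next protein-coding gene after STAT5A on GRCh38, so these intervals need not belong to STAT5A or STAT5B. With the window narrowed by 10 kb on both sides, 3 of the 7 intervals were left, 1 of each class. The shared interval among these, 578 bp wide (40418932 to 40419509), had a GATA1-only interval of 300 bp (40427475 to 40427774) 7965 bp after it. The TAL1-only interval, 149 bp (40351538 to 40351686), stood alone, 67.2 kb from the nearest GATA1 interval. Outside the window the nearest intervals, both GATA1-only, were 97.5 kb before it and 66.4 kb after it.

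BCL2L1 had more intervals than any other window of the 7 (chromosome 20, 30242001 to 30322000, band 20q11.21, 80 kb). Its 13 intervals comprised 5 shared, 7 GATA1-only and 1 TAL1-only. They ran from 30258566 to 30311918, over 53.4 kb, with no gap over 10 kb between neighbours. Of all 80 kb tiles, 0.0474% held 13 or more intervals, which was 18 of 37941 tiles.

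Shared intervals gathered at the lower-coordinate side of the BCL2L1 window. The site with most intervals held 4 within 2293 bp (30261899 to 30264191), a GATA1-only interval of 140 bp followed by 3 shared ones of 376, 427 and 85 bp. The outermost interval on that side was shared too, at 203 bp (30258566 to 30258768). The remaining shared interval, 586 bp wide (30294298 to 30294883), stood 1377 bp before the TAL1-only interval of 253 bp (30296261 to 30296513). At the opposite edge stood the widest interval of the window, GATA1-only and 764 bp (30311155 to 30311918), with a GATA1-only interval of 115 bp at 761 bp from it. The other 4 GATA1-only intervals measured 155 to 320 bp. Within 50 kb on either side stood 4 further intervals, 1 shared and 3 GATA1-only. COX4I2 and TPX2 are the neighbouring protein-coding genes on GRCh38.

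PIM1 had 6 GATA1 intervals, 1 of them also a TAL1 interval, and GATA1-only intervals also make up 63.8% of all intervals on chromosomes 1 to 22 and X. Its window (chromosome 6, 37100001 to 37155000, band 6p21.2, 55 kb) thus held 5 GATA1-only intervals and 1 shared. The GATA1-only ones measured 267 bp (37112297 to 37112563), 134 bp (37114530 to 37114663), 256 bp (37123160 to 37123415), 117 bp (37141695 to 37141811) and 850 bp (37145081 to 37145930). That last interval was the widest of all 40, and TAL1 was not listed there. The shared interval, 720 bp (37150659 to 37151378), lay nearest the end of the window. Of all 55 kb tiles, 0.877% held 6 or more intervals. FGD2 and TMEM217B are the neighbouring protein-coding genes on GRCh38, so an interval in the window need not belong to PIM1. Narrowing the window by 10 kb on both sides left 4 GATA1-only intervals and no shared one.

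The surroundings of PIM1 were denser than those of the other windows. Within 50 kb on either side stood 15 further intervals, 7 shared and 8 GATA1-only, so that widening the window raised its count from 6 to 21. The nearest lay 3.19 kb before the window (GATA1-only) and 4.58 kb after it (shared). Within 1 Mb on either side there were 81 intervals, or 4.05 per 100 kb, against 0.55 to 3.05 per 100 kb for the other 6 windows. The widened window held 8 shared and 13 GATA1-only intervals.

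CISH, the feedback inhibitor, had 4 intervals in the shortest window (chromosome 3, 50633001 to 50660000, band 3p21.2, 27 kb). A shared interval of 583 bp (50649200 to 50649782) had a GATA1-only interval on either side, of 88 bp (50648124 to 50648211) and 141 bp (50650163 to 50650303). The 3 made up a site of 2180 bp. A TAL1-only interval of 275 bp (50638550 to 50638824) lay 9299 bp before it. Of all 27 kb tiles, 0.857% held 4 or more intervals. The neighbouring protein-coding genes of CISH on GRCh38 are HEMK1 and MAPKAPK3, so these intervals need not belong to CISH. Outside the CISH window the nearest intervals were 55.5 kb before it (shared) and 1043 kb after it (GATA1-only). The windows of KIT and the STAT5 genes likewise had no further interval within 50 kb on either side.

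**Figure D2:**
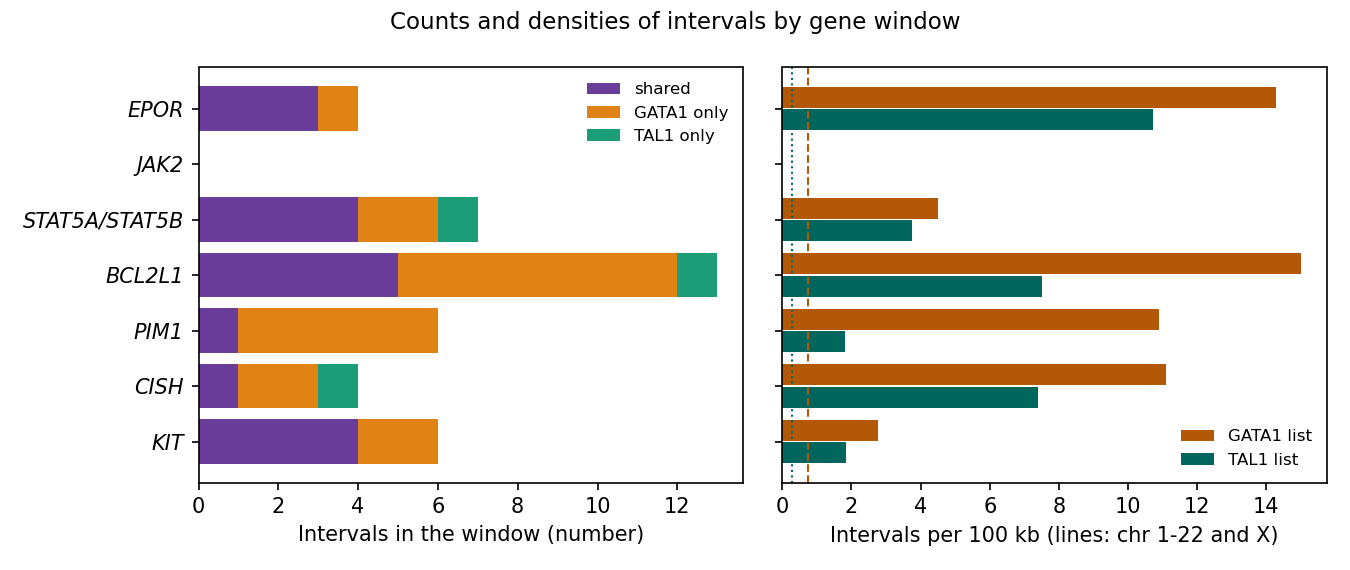
Left, number of intervals in each window by class. Right, intervals per 100 kb for the GATA1 list and the TAL1 list, with a dashed line for GATA1 (0.75) and a dotted line for TAL1 (0.294) over chromosomes 1 to 22 and X. BCL2L1 has the longest bar on the left, and all windows but JAK2 lie above both lines.

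Over the 7 windows together, which span 704 kb, GATA1 intervals numbered 5.26 per 100 kb and TAL1 intervals 2.98 per 100 kb. The values over chromosomes 1 to 22 and X were 0.75 and 0.294, so the windows held 7.01 and 10.2 times as many per length. The windows were chosen around genes and most of the genome is not, so the ratios do not set these genes apart from other genes. By window, GATA1 intervals ranged from 0 per 100 kb (JAK2) through 2.76 (KIT), 4.51 (STAT5A and STAT5B), 10.9 (PIM1), 11.1 (CISH) and 14.3 (EPOR) to 15.0 (BCL2L1). TAL1 intervals ranked otherwise, from 0 (JAK2) through 1.82 (PIM1), 1.84 (KIT), 3.76 (STAT5A and STAT5B), 7.41 (CISH) and 7.50 (BCL2L1) to 10.7 (EPOR). With 1 to 12 intervals behind each value other than that of JAK2, neighbours in these orders were not tested against each other. The windows also reach unequally far past their genes, by the RefSeq gene lengths on GRCh38. The KIT window has 217 kb for a gene of 82.8 kb and that of PIM1 55 kb for 5.28 kb. The JAK2 window has 164 kb for 145.6 kb. The part of this flank in the counts and densities by window was not tested.

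**Figure D3:**
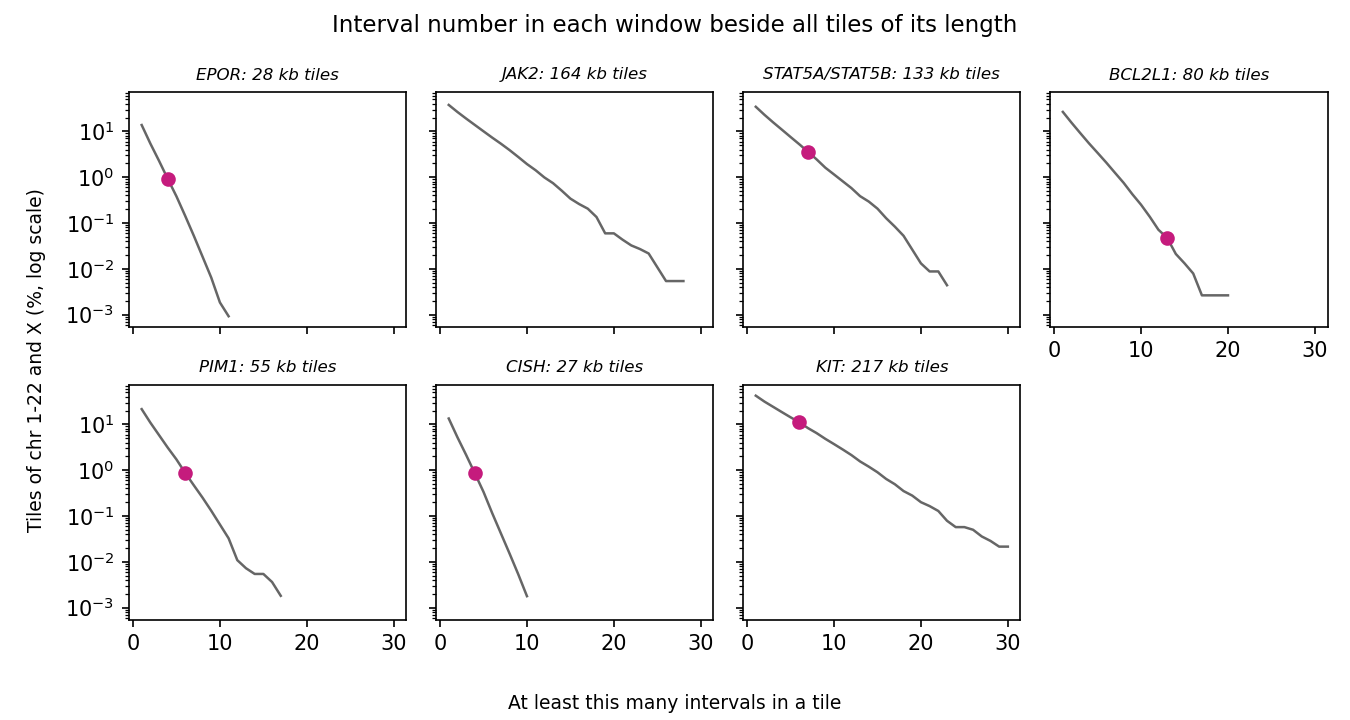
For each window, the line gives the percentage of tiles of the same length (log scale) that hold at least the number of intervals on the x axis, and the dot marks the number in the window. JAK2 has no dot because its window held 0 intervals. The dot of BCL2L1 lies lowest, at 0.0474%, and that of KIT highest, at 11.2%.

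GATA1 intervals in the windows were TAL1 intervals in 18 of 37 cases, or 48.6% (95% exact Clopper-Pearson interval 31.9 to 65.6%), against 30.8% of the GATA1 intervals outside the windows. In the other direction, 18 of 21 TAL1 intervals were GATA1 intervals, or 85.7% (63.7 to 97.0%), against 78.8% outside. The interval of the second share spans the outside value. That of the first begins just above it, but begins below it, at 28.1%, 27.3% and 27.3%, when the EPOR, the KIT or the STAT5 window is left out. The first share is therefore not set apart from the outside value by these counts. The confidence intervals treat each listed interval as a unit and cover counting only, and neighbouring intervals are not independent. By gene, the first share was 3 of 4 at EPOR, 4 of 6 at KIT and 4 of 6 at the STAT5 genes. It was 5 of 12 at BCL2L1, 1 of 3 at CISH and 1 of 6 at PIM1. The exact interval of each of these shares spans the outside share, from EPOR (19.4 to 99.4%) to PIM1 (0.421 to 64.1%). No difference between genes was tested, since the counts are small. All TAL1 intervals within the windows of EPOR (3), KIT (4) and PIM1 (1) were shared, though with 50 kb added on both sides EPOR had 3 shared and 2 TAL1-only intervals, and the 3 TAL1-only intervals were at BCL2L1, CISH and the STAT5 genes, 1 each.

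Intervals in the windows often stood next to another. Of the 40, 25 (62.5%) had a neighbour within 2000 bp, against 34% of the intervals outside the windows. Among shared intervals the number was 14 of 18 (77.8%), against 39.1% outside, and among GATA1-only intervals 10 of 19 (52.6%), against 32.4%. The windows were also denser than the genome, and the part of density in these shares was not tested. Joining intervals across gaps of up to 2000 bp left 25 sites, of which 10 held 2 or more intervals. Of those 10, 3 were all shared (1 at EPOR and 2 at KIT), 3 were all GATA1-only (BCL2L1, PIM1 and KIT) and 4 were mixed (2 at BCL2L1, 1 at the STAT5 genes and 1 at CISH). Because the lists give no summit, whether close intervals are separate sites cannot be told.

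Shared intervals in the windows had a median width of 426.5 bp (quartiles 202 to 548 bp, n = 18), against 373 bp (270 to 489 bp) for those outside. GATA1-only intervals had a median of 260 bp (137 to 310 bp, n = 19), against 264 bp (168 to 389 bp) outside. The 3 TAL1-only intervals measured 149, 253 and 275 bp, against a median of 274 bp. Widths of shared intervals were spread widely, from 85 bp at BCL2L1 to 783 bp at the STAT5 genes. Among GATA1-only intervals, those of 764 bp at BCL2L1, 792 bp at EPOR and 850 bp at PIM1 stood above the rest, which reached 328 bp. A shared interval has 1 width for both factors, so widths describe the listed intervals and not the binding of either factor.

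**Figure D4:**
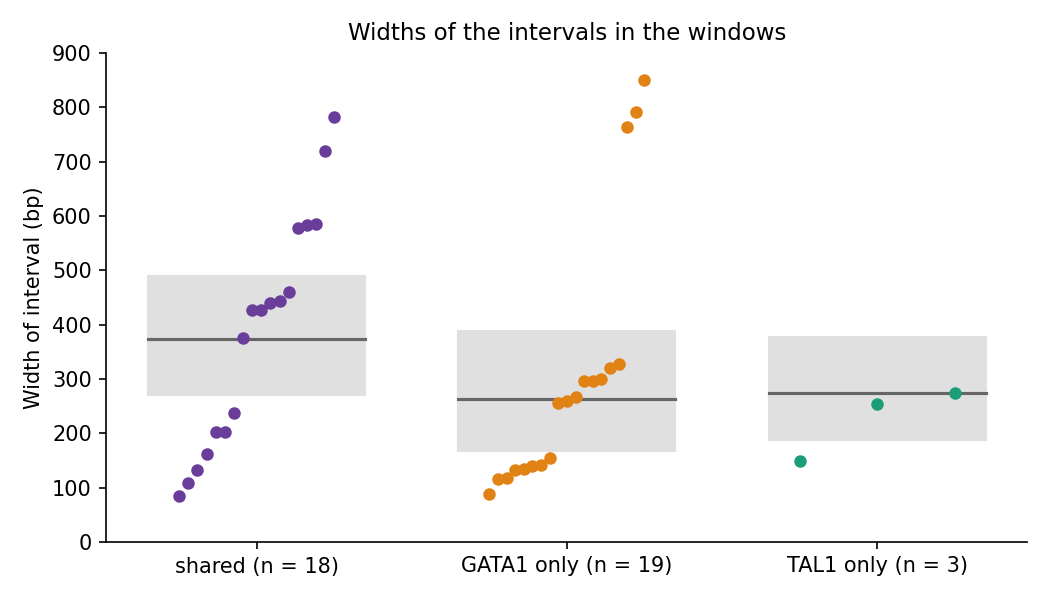
Width in bp of each interval in the windows (dots, sorted within a class) for shared, GATA1-only and TAL1-only intervals. Grey boxes give the quartiles and grey lines the median of intervals outside the windows. The 3 GATA1-only dots at 764 bp or more lie above all other dots of that class.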

How the data were processed

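The 2 lists analysed, GATA1 and TAL1 in control K562, were deposited by the authors as 3 columns with no header: chromosome, start and end. Trimmomatic, Bowtie2, MACS2, deepTools and hg19 are named per the submitters' processing notes, without versions, thresholds or roles. Read numbers, and whether peaks were called per library, are not given in the sources used here. Outside the mitochondrial sequence, 7029 of 8914 TAL1 intervals had exactly the same start and end as a GATA1 interval. How the lists came to hold the same positions was not tested, so a shared interval is not read as 2 separate peak calls. Of the 12 libraries, 10 were not analysed here, and 4 TAL1 intervals on the mitochondrial sequence were left out of comparisons.

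Windows came from the stated kb positions, and any overlap of 1 bp or more counted. Groups came from sample titles. Tools were Python 3.11.15, numpy 2.4.6, pandas 2.3.3, scipy 1.17.1 and matplotlib 3.10.9. Chromosome lengths came from GenomeInfoDb 1.38.1 and bands from circlize 0.4.16. Counting, joining and motif search were checked on made-up lists and sequences. Intervals were named one by one in windows with up to 8. At BCL2L1 the widest 3, the outermost 2, the TAL1-only interval and the fullest site were named, with the other intervals by width. Genes, windows and lists were chosen with earlier results of these data known.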

Additional observations from a re-analysis of the deposited data

How the results depend on the processing

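No paired analysis was possible because each factor has 1 library. The lists hold no height or p-value, so a width filter was used where a stricter threshold could not be. Whether width follows the strength of a peak is not known from the lists. Keeping intervals of at least the median width of all (297 bp) left 18 of 40 intervals. By window these were 2 at EPOR, 5 at the STAT5 genes, 5 at BCL2L1, 2 at PIM1, 1 at CISH and 3 at KIT. The share of TAL1 intervals that were also GATA1 intervals rose from 85.7% to 100% (11 of 11, exact interval 71.5 to 100%). Outside the windows the same filter raised it from 78.8% to 85.3%. The filter lowers counts by construction. It also tends to keep shared intervals, whose median width outside the windows was 373 bp, against 264 bp for GATA1-only and 274 bp for TAL1-only intervals. Widening each window by 50 kb gave 62 intervals, with 1 at JAK2 and 21 at PIM1. Narrowing by 10 kb left 3 at the STAT5 genes and 2 at CISH. The share of GATA1 intervals that were also TAL1 intervals ran from 44.4% to 61.1% over the definitions and windows tried, and from 45.2% to 54.8% with each window left out in turn, against 48.6%. The highest, 61.1%, came from the width filter, with 42.1% outside the windows, and the 54.1% with the other factor within 1000 bp stood beside 34.5% outside. Leaving out windows moved the share of TAL1 intervals between 82.4% and 89.5% and the total between 27 (without BCL2L1) and 40. Unknown depth limits every count.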
